A study of Mus musculus with 9 samples.

Results

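Injury macrophages are, in this text, nuclei of the mouse heart with several genes of a set that includes Gpnmb and Arg1. Nearly all came from hearts after ischemia-reperfusion (I/R), and not every such nucleus carried Gpnmb or Arg1. They were picked from 9 tables of nuclei sequenced singly (sNuc-seq), where transcripts are counted by unique molecular identifiers (UMIs). A nucleus was a member when at least 3 of the 9 genes Gpnmb, Adam8, Gm5150, St18, Arg1, Sirpb1c, Cd300lf, Lilr4b and Ctss had a UMI. At most 1 of the 5 neutrophil genes S100a9, Retnlg, Csf3r, Il1r2 and Slfn4 could have a UMI, and at most 2 of the 6 genes Pecam1, Ptprb, Abca8a, Pdgfra, Rbm20 and Ldb3, which mark endothelial cells, fibroblasts and cardiomyocytes. The members were thus chosen by their own RNA levels, and these 20 genes are described without a test. The rule took 3332 of 49171 nuclei (6.78%).

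All mice were C57BL/6, 8 weeks old. Sham mice (3 samples) were gavaged with vehicle, a sodium carboxymethyl cellulose solution, for 7 days and then had the needle passed without a ligature. I/R mice (3 samples) had the same vehicle for 7 days, then 30 min of ligation of the left anterior descending coronary artery (LAD) and 24 h of recanalization. SBP mice (3 samples) were gavaged with Shexiang Baoxin Pill, a traditional Chinese medicine that the labels call MUSKARDIA, for 7 days before the same 30 min of ligation and 24 h of recanalization. Every group thus had gavage and surgery, and no group received the pill without I/R. The study states that each sample came from a different mouse, while the labels only number the replicates.

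Macrophages of the injured heart come from 2 sources. Resident macrophages live in the healthy myocardium, turn over locally and carry scavenger receptors such as Cd163 and the mannose receptor Mrc1. Monocytes enter from blood after an infarct, become macrophages, take up dying cells and change from inflammatory to repair programs. Gpnmb, a transmembrane glycoprotein of lysosome-rich macrophages, and Spp1, which encodes osteopontin, are known from lipid- and debris-laden macrophages. Arg1 encodes arginase, which splits arginine into ornithine and urea and is a textbook gene of alternative activation.

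The samples held 4576 to 6418 nuclei, 10329520 to 18205985 UMIs and a median of 1540 to 2031 UMIs per nucleus. Members had a median of 1850 to 2290 UMIs in the I/R and SBP samples, and the other nuclei 1747.5 to 2007. A pair of samples shared 4 to 14 barcodes. Levels are given as CPM, the UMIs of a gene per 1000000 UMIs of the summed members of a sample. I/R 2 differed from the other samples in some inflammatory and neutrophil genes. Saa3, an acute-phase gene, was at 1088 CPM there and at 3.71 to 23 CPM in the other 5 I/R and SBP samples. I/R 2 also had the most neutrophil-like nuclei, defined as nuclei with at least 3 of the 5 neutrophil genes (5.17% against 0.273% to 1.41%).

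Where the RefSeq promoter table (GRCm38.p6, 250 bases before to 50 after a gene's start) had an entry, promoters were searched on both strands for 4 motifs: the E-box CACGTG, the M-box TCATGTG of the Mitf family, the AP-1 site TGANTCA and the PU.1 core GAGGAA. Of the 9 member-defining genes, 7 had an entry. The AP-1 letters were found in 1 of the 7, Gpnmb (7.81% of all 32851 promoters), and the PU.1 core in 2 of the 7, Cd300lf and Ctss (28.3% of all promoters). The M-box was in 1, Ctss (3.77% of all), and the E-box in 0 of the 7 (7.15% of all). The 3 promoters below are shown because each holds a match: Gpnmb and Spp1 carry much of the description that follows, and Cd300lf is a gene of the rule with the PU.1 core. They lie at chr6:49036268-49036567 on the plus strand for Gpnmb, chr5:104434861-104435160 on the plus strand for Spp1 and chr11:115133943-115134242 on the minus strand for Cd300lf. Capitals mark the AP-1 match in Gpnmb (bases 259 to 265 of the window, from 8 bases past the RefSeq start, and before the GENCODE start given with the gene below) and the PU.1 core, on either strand, in Spp1 (bases 138 to 143) and Cd300lf (bases 208 to 213, and again from the RefSeq start). A match is a run of letters, and binding was not measured.
Gpnmb: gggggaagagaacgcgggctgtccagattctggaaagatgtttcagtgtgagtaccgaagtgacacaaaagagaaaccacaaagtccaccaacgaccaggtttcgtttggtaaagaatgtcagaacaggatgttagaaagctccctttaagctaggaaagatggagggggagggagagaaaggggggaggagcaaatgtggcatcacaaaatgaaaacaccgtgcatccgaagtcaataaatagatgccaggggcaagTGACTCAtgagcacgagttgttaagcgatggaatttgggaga
Spp1: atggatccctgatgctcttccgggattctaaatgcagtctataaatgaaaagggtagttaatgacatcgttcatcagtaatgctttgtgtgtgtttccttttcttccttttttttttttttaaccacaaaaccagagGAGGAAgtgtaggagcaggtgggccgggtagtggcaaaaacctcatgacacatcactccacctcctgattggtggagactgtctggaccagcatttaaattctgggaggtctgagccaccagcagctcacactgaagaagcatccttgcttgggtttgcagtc
Cd300lf: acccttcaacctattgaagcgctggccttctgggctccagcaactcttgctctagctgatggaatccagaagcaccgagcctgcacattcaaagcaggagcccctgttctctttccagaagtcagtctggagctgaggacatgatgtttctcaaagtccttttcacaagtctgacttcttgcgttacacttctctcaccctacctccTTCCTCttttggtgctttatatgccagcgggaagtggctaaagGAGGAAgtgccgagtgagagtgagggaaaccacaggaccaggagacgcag

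Injury macrophages were rare in sham hearts and made up 4.44% to 18.4% of the nuclei after I/R with or without SBP. In sham they numbered 6, 12 and 9, or 0.131% (exact 95% interval 0.0481 to 0.285), 0.203% (0.105 to 0.354) and 0.163% (0.0744 to 0.309) of the nuclei of a sample. In I/R they numbered 1182, 512 and 376, or 18.4% (17.5 to 19.4), 9.88% (9.08 to 10.7) and 6.63% (6.00 to 7.31). In SBP they numbered 225, 775 and 235, or 4.44% (3.89 to 5.04), 13.6% (12.8 to 14.6) and 4.59% (4.03 to 5.20). Every I/R and SBP sample lay above every sham sample, and SBP 2 lay above I/R 2 and I/R 3, so the I/R and SBP samples overlapped. The intervals are Clopper-Pearson and cover counting error only. Of all members, 99.2% came from I/R and SBP hearts. The rule's genes differ between injured and sham hearts in these data, so the distance from sham is a description.

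The mean share was 0.166% ± 0.0359 (SD, n = 3) in sham, 11.6% ± 6.09 (SD, n = 3) in I/R and 7.56% ± 5.27 (SD, n = 3) in SBP. The difference in log2 share, SBP minus I/R, was -0.71 ± 0.68 (SE). It was not larger than the spread between samples (two-sided exact permutation test, p = 0.3, n = 3 and 3, where 0.1 is the smallest p the design allows). Without SBP 2 the difference was -1.24 (exact permutation p = 0.2), and without I/R 1 it was -0.31 (exact permutation p = 0.6). As a share of injury plus resident-like macrophages it was -0.21 (exact permutation p = 0.7). Wherever nuclei were thinned to 1000 UMIs, those with fewer UMIs were left out, 487 to 658 nuclei per I/R or SBP sample. Among the thinned nuclei, the shares were 15.2%, 10.0% and 5.38% in I/R and 3.88%, 11.7% and 3.30% in SBP. A share of nuclei cannot tell more macrophages from fewer nuclei of other types.

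Resident-like macrophages were nuclei with at least 3 of Cd163, Mrc1, F13a1, Lyve1, Gas6, Cbr2, Folr2 and Timd4 that were not members. The limits on neutrophil genes and on genes of other cells were the same as for members. Resident-like nuclei were present in every group. They were 6.38% to 9.49% of nuclei in sham and 5.36% to 8.41% in I/R and SBP. Injury macrophages were therefore 1.69% to 3.00% of the sum of both kinds in sham. Among the I/R samples they were 75.9%, 64.8% and 44.1% of that sum, and among the SBP samples 44.4%, 69.4% and 45.9%. The border between both kinds was not sharp, because 22.3%, 36.5% and 38.8% of the members in I/R and 34.2%, 15.6% and 22.1% in SBP also had at least 3 of the 8 resident genes.

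**Figure D1:**
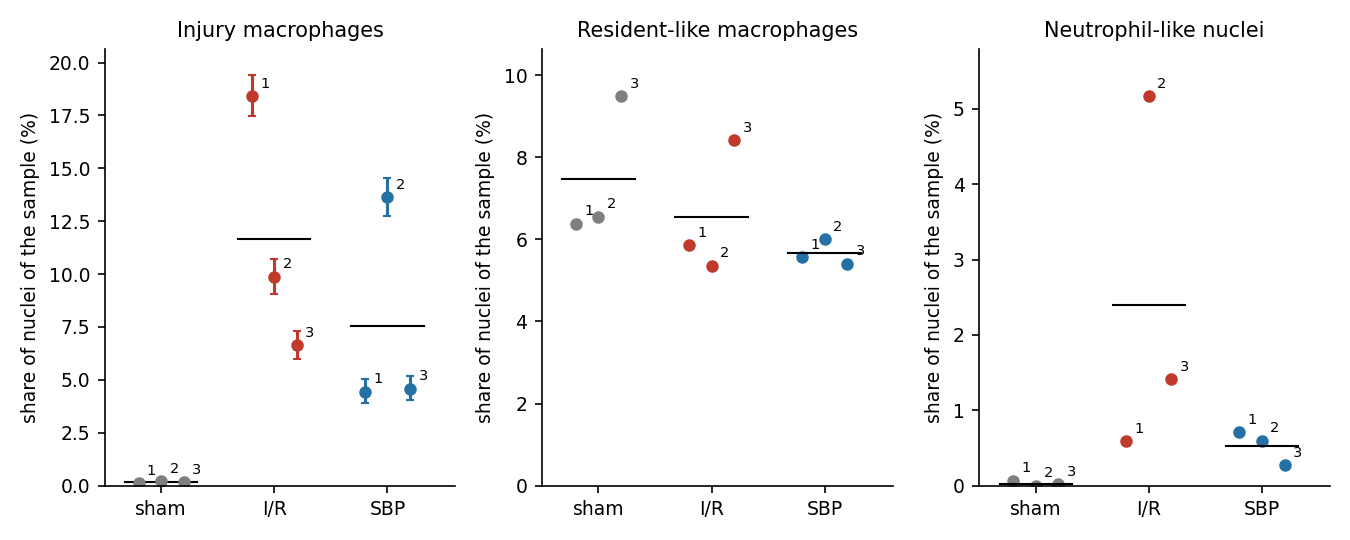
Share of nuclei per sample (y axis, percent) that were injury macrophages, resident-like macrophages or neutrophil-like nuclei in sham, I/R and SBP (x axis). Points are samples with their replicate number, black lines are group means, and error bars in the left panel are exact 95% intervals; injury macrophages lie at 0.131% to 0.203% in sham and at 4.44% to 18.4% in I/R and SBP, whereas resident-like macrophages lie at 5.36% to 9.49% in all 9 samples.

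The label of macrophage was checked against 15 general macrophage genes that the rule did not use. All 15 were detected in the members of each I/R and SBP sample. Ptprc, the CD45 antigen of blood-derived cells, had a UMI in 58.7% to 77.2% of the members of a sample. Adgre1, which encodes F4/80, was found in 56.9% to 72.5%, Mertk, a receptor for dying cells, in 65.1% to 84.3%, and Dock2, a leukocyte migration factor, in 74.4% to 90.6%. Csf1r, the receptor for macrophage colony-stimulating factor, was found in 34.8% to 47.2%. In a reference set of cardiomyocyte nuclei (Rbm20 and Ldb3 present, Ptprc absent), where such UMIs are background, Adgre1 was found in 0.823% to 9.10% and Csf1r in 1.63% to 6.44%, although these nuclei had a median of 4148.5 to 5143.5 UMIs. Of the 15 genes, only Ptprc, absent there by definition, had 0 UMIs in the summed reference of each I/R and SBP sample. Detection in a sum therefore does not tell members from this reference, whereas the shares of nuclei with Adgre1 and Csf1r differed. The 10 neutrophil markers outside the rule summed to 230 to 717 CPM in the members, highest in I/R 2, and to 71.8 to 366 CPM in resident-like nuclei. The sum was higher in the members of all 6 samples. Much of it was Clec4d, the marker of this list with the highest mean level in members. Clec4d was at 135 to 330 CPM in members and 32.6 to 144 CPM in resident-like nuclei. The sum was 18.7 to 97.4 CPM in the cardiomyocyte reference. The 8 T cell markers summed to 7.99 to 34.4 CPM in the members. The 10 monocyte markers summed to 856 to 1333 CPM in the members and to 358 to 467 CPM in resident-like nuclei, so the ranges did not overlap. The members of the I/R and SBP samples thus carried general macrophage genes together with monocyte markers and some genes of the neutrophil list, mainly Clec4d. The rule does not part macrophages from monocytes.

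The 27 sham members were another matter. Gpnmb, Arg1 and Spp1 had 0 UMIs in all 27 nuclei of 3 samples. For a given gene this allows up to 11.1% of such nuclei with a UMI (counting error only), and does not limit how many expressed it. They passed mainly through Ctss (7, 23 and 12 UMIs), Lilr4b (6, 16 and 12), Gm5150 (6, 5 and 11), Cd300lf (4, 8 and 4), Adam8 (7, 3 and 5) and Sirpb1c (5, 7 and 3). The 10 dendritic cell markers summed to 229, 1137 and 1290 CPM in the sham members and to 57 to 170 CPM in the I/R and SBP members. The 10 endothelial markers summed to 7195 CPM in the 6 members of sham 1, to 682 and 676 CPM in those of the other 2 sham samples, and to 271 to 576 CPM in the I/R and SBP members. The monocyte markers were at 1787, 1554 and 1229 CPM in sham. The sham members are therefore called by the rule alone, and no sham sample had the 20 members needed for a fit.

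Membership needed 3 genes, and 30.6% of the members had exactly 3. Of 1001 I/R and SBP members with 3 genes, 67.8% had a Ptprc UMI, 60.4% an Adgre1 UMI, 40.6% an Spp1 UMI and 20.2% a Cd163 UMI. Of 1864 nuclei just outside, with 2 of the genes, 52.2% had Ptprc, 40.5% Adgre1, 32.5% Spp1 and 23.6% Cd163. Nuclei on both sides of the limit thus carried macrophage genes. In the cardiomyocyte reference, before any limit on other cells, 2.86%, 1.85% and 1.06% of the I/R nuclei had at least 3 of the genes. In SBP it was 0.650%, 1.49% and 0.206%, and in sham 0% in each sample. The part of such background in the shares of members was not tested. Before the limits on other cell types, 4542 nuclei had at least 3 of the genes. The neutrophil limit removed 1088 of them and the limit on other cells 171, and nuclei that failed both limits are counted in each. The neutrophil limit was uneven between samples. It removed 257 of 1480, 440 of 976 and 98 of 486 such nuclei in I/R 1 to 3. In SBP 1 to 3 it removed 52 of 289, 205 of 1001 and 34 of 275. How this changed the shares of members was not tested.

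Gpnmb (chr6:49036546-49070929, plus strand, GRCm38 in the GENCODE vM21 annotation) varied widely within each group. Gpnmb had a UMI in 64.4%, 13.9% and 41.2% of the I/R members and in 19.6%, 48.8% and 27.7% of the SBP members. Its level was 1153, 137 and 681 CPM in I/R and 265, 940 and 469 CPM in SBP. I/R 1 and SBP 2 were high, I/R 2 and SBP 1 were low, and the groups overlapped. Resident-like macrophages of the same hearts held 1.6 to 86.2 CPM. The members held 39.1% to 68.9% of all Gpnmb UMIs of a sample and were 4.44% to 18.4% of its nuclei.

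Arg1 (chr10:24915221-24927484, minus strand) ran in nearly the opposite order. Arg1 had a UMI in 19.0%, 57.2% and 42.3% of the I/R members and in 42.2%, 16.0% and 39.1% of the SBP members, at 236, 924 and 626 CPM in I/R and 683, 180 and 540 CPM in SBP. I/R 2 and SBP 1 were high here, and I/R 1 and SBP 2 were low. Members held 44.5% to 75.4% of all Arg1 UMIs of a sample. The resident-like level was 12.6 to 43.6 CPM.

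The other genes of the rule were more even. Adam8, a membrane metalloprotease of leukocytes (chr7:139978932-139992562), had a UMI in 51.9% to 75.1% of the members. Cd300lf, an inhibitory receptor that binds lipids of dying cells (chr11:115116214-115133992), was found in 43.8% to 62.5%. St18, a zinc finger transcription factor (chr1:6487231-6860940), was found in 21.8% to 38.7%, and members held 46.8% to 86.6% of its UMIs. Ctss, the lysosomal protease cathepsin S, was found in 71.6% to 86.2% of members and in 27.3% to 34.3% of resident-like nuclei. Lilr4b, an inhibitory receptor, was found in 68.4% to 85.2% of members and in 29.8% to 42.6% of resident-like nuclei. Gm5150 and Sirpb1c belong to a cluster of near-identical genes, Adam8 and Cd300lf overlap genes on the other strand, and Lilr4b overlaps a gene on its own strand, so reads could have been split among these.

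**Figure D2:**
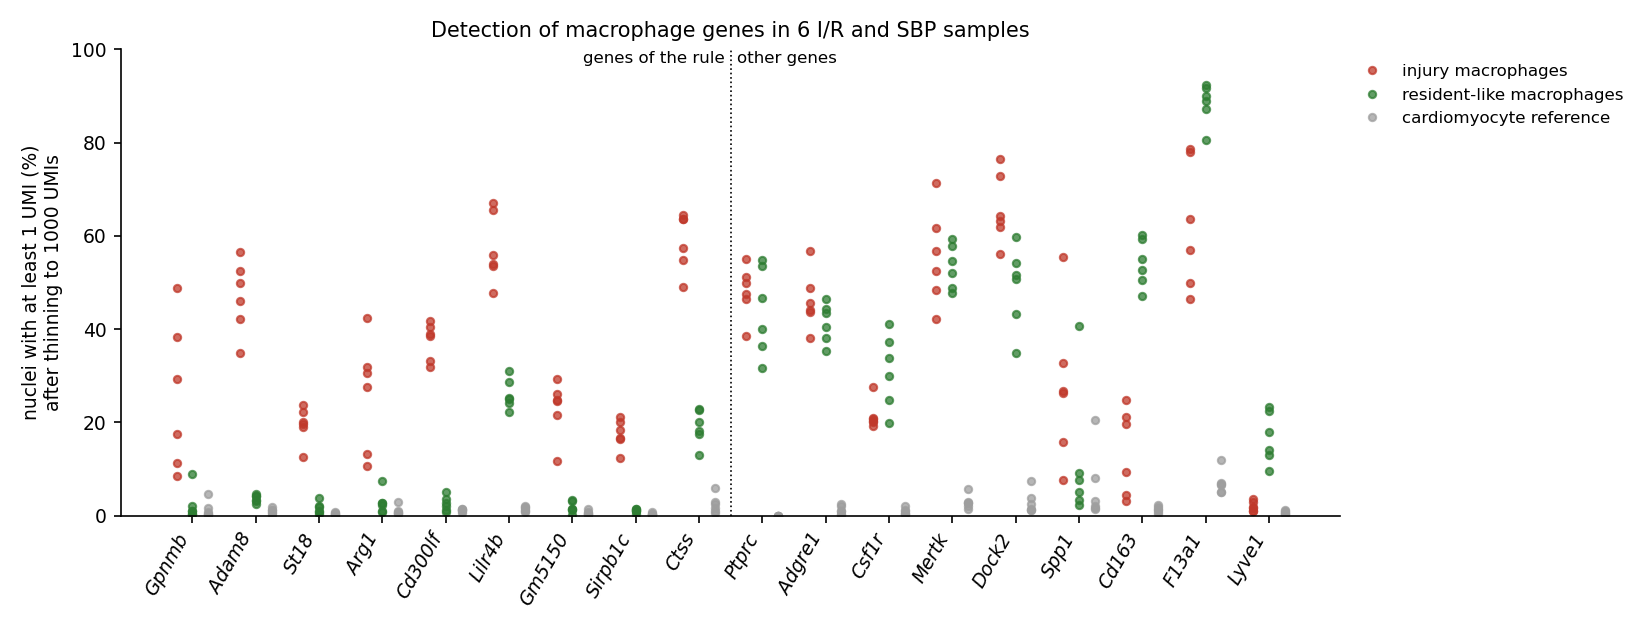
Share of nuclei (y axis, percent) with at least 1 UMI of a gene (x axis) after thinning to 1000 UMIs, with nuclei under 1000 UMIs left out. Injury macrophages are red, resident-like macrophages green and cardiomyocyte reference nuclei without Ptprc grey. Each point is 1 of the 6 I/R and SBP samples; the 9 genes left of the dotted line chose the members, and Cd163, F13a1 and Lyve1 helped to choose the resident-like nuclei, so these differences follow from the rules, whereas Ptprc, Adgre1, Csf1r, Mertk and Dock2 were used for neither (Ptprc was used for the reference).

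Spp1, which the rule did not use, was highest and lowest in the same samples as Gpnmb, but the samples between did not keep their order. Its level in the members was 1066, 94.4 and 389 CPM in I/R and 281, 556 and 566 CPM in SBP. I/R 1 was highest and I/R 2 lowest, SBP 3 lay above I/R 3 for Spp1 and below it for Gpnmb, and the groups overlapped. SBP 2 and SBP 3 were nearly level for Spp1, whereas SBP 2 was higher for Gpnmb. Spp1 UMIs were also found in nuclei of another type. Spp1 had a UMI in 63.8%, 5.9% and 15% of the cardiomyocyte reference nuclei of I/R 1 to 3, and after thinning in 1.42% to 20.4% of these nuclei against 7.68% to 55.6% of members. Members held 20.2% to 35.8% of all Spp1 UMIs of a sample. Of the UMIs of all genes they held 2873833 of 18205985 in I/R 1 and 487542 of 13573899 in SBP 1.

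Over the 6 samples, 34 of 9811 genes had the same rank order as Gpnmb (Spearman rho of 1) and 28 the reverse. This is a description with no test, over 6 samples that share depth and cell mixture. With so few samples some genes take any given order by chance, and the counts were not set against that. The 8 genes nearest to Gpnmb by this measure, with ties ordered by Pearson's r, were Gna12, Zfp384, Kif13b, Itga6, Dok1, Lipa, Slc35d2 and Iqgap2. Lipa, the lysosomal acid lipase, was at 184, 49.0 and 117 scaled CPM in I/R and 78.1, 159 and 114 scaled CPM in SBP. Itga6, an integrin subunit, was at 407, 76.5 and 264 in I/R and 126, 362 and 247 in SBP on the same scale. Scaled CPM is CPM divided by a trimmed-mean (TMM) factor of the sample, 0.973 to 1.02. Genes in the reverse order included Nfkbiz and Ier3, both early targets of inflammatory signals, and Nfil3, a transcription factor. Ier3 was at 32.3, 148 and 55.5 scaled CPM in I/R and 100, 41.7 and 62.8 in SBP.

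Cd163, the haemoglobin scavenger receptor of resident macrophages, was lowest in I/R 1 and SBP 2, the samples with the highest Gpnmb. The reverse order did not hold for I/R 3, which had more of both genes than SBP 1 and SBP 3. Cd163 was at 53.2, 612 and 481 CPM in the I/R members and 441, 96.6 and 165 CPM in the SBP members. In resident-like nuclei, which Cd163 helped to choose, it was more even, at 789 to 1356 CPM. Fkbp5, a glucocorticoid-responsive chaperone, was at 235, 1161 and 1285 CPM in I/R and 759, 276 and 338 CPM in SBP members. Its resident-like levels of 538, 1118 and 2082 CPM in I/R and 1020, 673 and 898 CPM in SBP were also lowest in I/R 1. The share of members with 3 or more resident genes, a count that includes Cd163, was also lowest in SBP 2, SBP 3 and I/R 1. Its part in these orders was not tested.

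**Figure D3:**
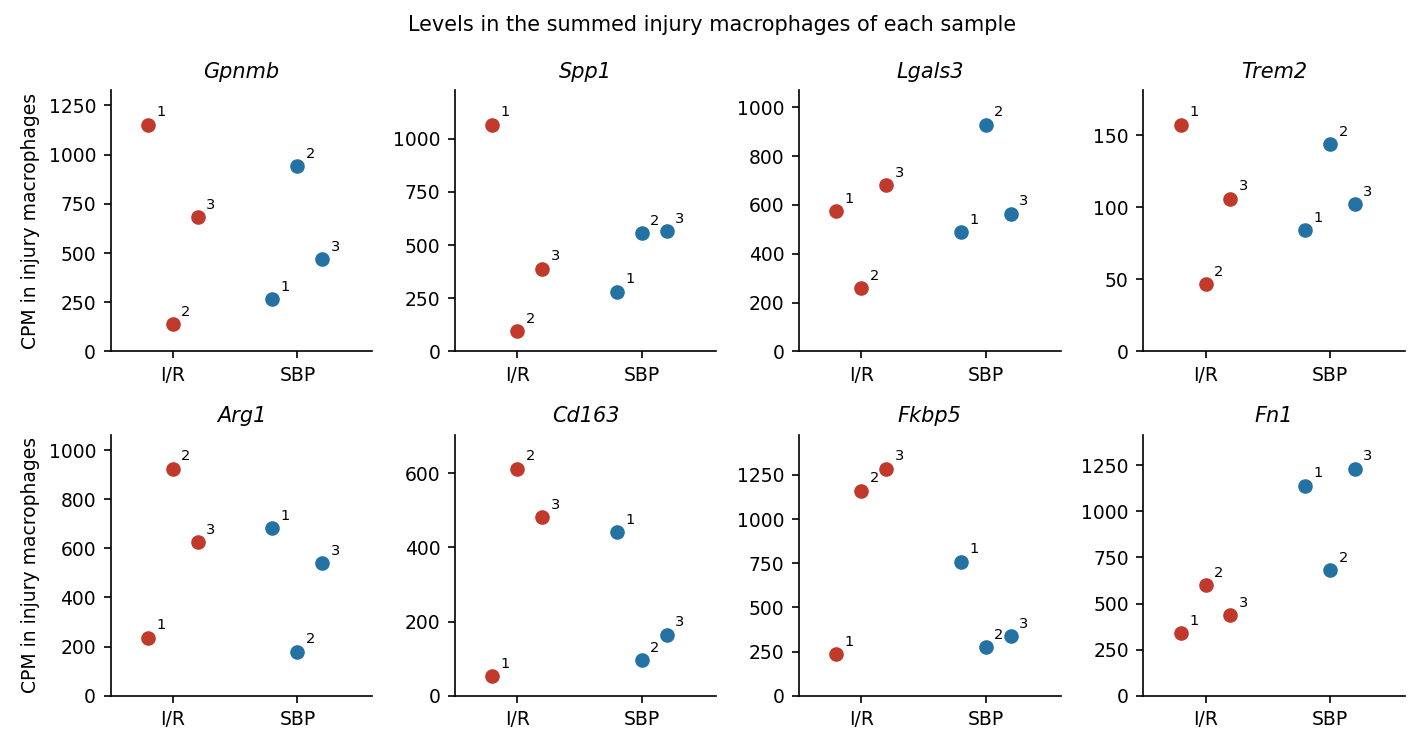
Level in the summed injury macrophages (y axis, CPM, linear and starting at 0) of 8 genes in the 3 I/R (red) and 3 SBP (blue) samples, with replicate numbers. Gpnmb, Spp1 and Trem2 are highest in I/R 1 and lowest in I/R 2, Arg1 and Cd163 are highest in I/R 2, and the groups overlap in every panel but that of Fn1.

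In single nuclei thinned to 1000 UMIs, Gpnmb and Arg1 were detected together in few members. Both are genes of the rule, which shapes how often they meet, so the shares are a description. Both genes had a UMI in 5.3%, 4.7% and 9.1% of the I/R members and in 2.7%, 2.9% and 4.7% of the SBP members. Gpnmb without Arg1 made up 43.4%, 3.7% and 20.1% in I/R and 8.5%, 35.4% and 12.8% in SBP. Arg1 without Gpnmb made up 7.8%, 37.6% and 21.4% in I/R and 29.1%, 7.7% and 23.0% in SBP. Between 43.4% and 59.6% of the members had neither gene at this depth, which does not show that they lacked it. With all UMIs of a nucleus used, 28.0% to 45.8% of the members of a sample had neither gene and 6.19% to 18.9% had both.

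Some genes outside the rule went with these classes in all 6 samples, and others did not. Fn1, which encodes fibronectin, had a UMI in 11.1%, 5.26% and 12% of the Gpnmb-only nuclei of I/R 1 to 3 and in 39.1%, 31.4% and 41.2% of the Arg1-only nuclei. In SBP 1 to 3 the values were 15.8%, 14.3% and 26.7% against 67.7%, 49.2% and 66.7%, so Arg1-only nuclei had more Fn1 in all 6 samples. Ccr2, the receptor that brings monocytes out of blood, was also found more often in the Arg1-only nuclei of all 6 samples, at 6.28% to 44.6% against 0% to 19.1%. Its level over all members did not follow Arg1 across samples, at 498, 98.1 and 175 scaled CPM in I/R and 196, 404 and 419 in SBP, highest in I/R 1 and lowest in I/R 2. Lgals3, which encodes galectin-3, was the reverse, at 46.3% to 78.9% of Gpnmb-only and 18.3% to 44.1% of Arg1-only nuclei. Fabp5, a fatty acid carrier, and Plin2, a lipid droplet coat protein, were found more often with Gpnmb in all 6 samples. Plin2 was at 34.4% to 64.0% of Gpnmb-only and 23.9% to 52.3% of Arg1-only nuclei. Resident genes were not uniform. F13a1 was found more often in Arg1-only nuclei of all 6 samples, and Mrc1 in all but I/R 1 (41.3% against 43.0%). Cd163 was found more often with Gpnmb in I/R 2 (31.6% against 24.6%), SBP 1 (21.1% against 16.9%) and SBP 2 (3.68% against 1.69%). In I/R 1, I/R 3 and SBP 3 it was found more often with Arg1. Trem2 was found more often in Arg1-only nuclei in I/R 1 (19.6% against 16.6%) and SBP 1 (13.8% against 0%). In I/R 2, I/R 3, SBP 2 and SBP 3 it was found more often in Gpnmb-only nuclei. Hmox1 was found more often with Arg1 in SBP 1 and SBP 3 and with Gpnmb in the other samples. Gpnmb-only nuclei numbered 19 in I/R 2 and in SBP 1, so single values there rest on few nuclei. These genes were chosen after earlier results were known and carry no test.

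**Figure D4:**
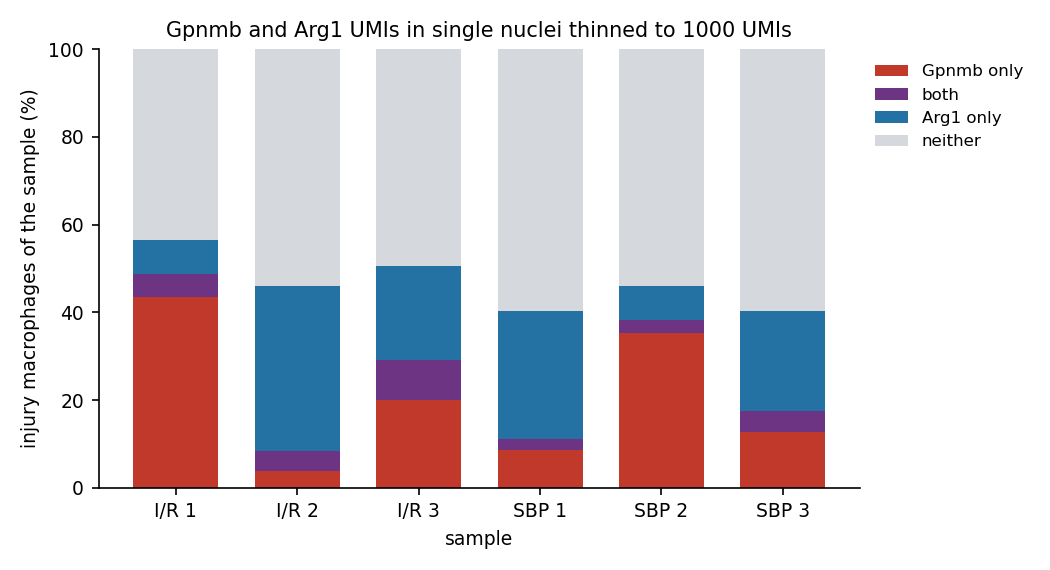
Share of the injury macrophages of each I/R and SBP sample (y axis, percent, stacked to 100) with a UMI of Gpnmb only, of both genes, of Arg1 only or of neither, after thinning to 1000 UMIs per nucleus. Nuclei under 1000 UMIs were left out. Gpnmb-only nuclei reach 43.4% in I/R 1 and 35.4% in SBP 2, Arg1-only nuclei reach 37.6% in I/R 2, and nuclei with both stay between 2.7% and 9.1%.

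Injury macrophages were set beside the resident-like macrophages of the same 6 hearts. Both kinds were chosen by expression, so this is a description without a test, over 4738 genes outside both rules at 50 CPM or more in either kind. Of these genes, 27.8% were higher and 19.1% lower in the members of all 6 samples. F7 and F10, coagulation factors, stood out. F7 was at 141, 243 and 224 CPM in the I/R members and 215, 242 and 187 CPM in the SBP members, against 1.17 to 9.68 CPM in resident-like nuclei. F10 was at 77.4 CPM over all members and 6.8 CPM over all resident-like nuclei. Il7r, the interleukin-7 receptor, was at 177 against 6.59 CPM, and Mefv, which encodes the inflammasome sensor pyrin, at 75.7 against 3.91 CPM. Atp6v0d2, a subunit of the proton pump of lysosomes, was at 99.6 against 8.86 CPM.

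Outside the 20 genes of the rule, which were left out here, the remaining genes of the 20 with the largest ratios were 6.49 to 12.4 times higher in members. They included Thbs1, the matrix protein thrombospondin-1, at 307 against 28.4 CPM, Hpse, the heparan sulphate-cutting heparanase, and Slc7a11, the cystine transporter. Slc7a11 rested on I/R 2, where it was at 360 CPM, with 18 to 53.3 CPM in the other 5 samples. They also included Cd244a, Sgms2, Gm47507, Slamf7, Sirpb1b, Gpr141, Sh2b2, Galnt6, Xylt1, Fn1 and Lgals3, and each of these was higher in the members of all 6 samples. Sirpb1b is a near-identical relative of Sirpb1c, and Cd244a overlaps a gene on the other strand.

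Genes of lysosomes and lipid handling were mostly higher in injury macrophages. Of 22 such genes in the comparison, 15 were higher (68.2%, against 27.8% of all genes) and 1 lower (4.55% against 19.1%) in all 6 samples, with a median log2 ratio of 1.31 against 0.09 over all genes. Ctsb, cathepsin B, was at 983 against 365 CPM, Ctsd, cathepsin D, at 607 against 194 CPM, and Plin2 at 514 against 186 CPM. Lpl, lipoprotein lipase, was lower, at 300 against 478 CPM. Of 15 genes of efferocytosis, the uptake of dying cells, 8 were higher (53.3%) and 1 lower (6.67%). Lrp1, a large uptake receptor, was at 931 against 258 CPM and Trem2, a lipid-sensing receptor, at 122 against 30.9 CPM, while Pros1, a bridging ligand for Mertk, was lower at 86.9 against 160 CPM.

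Chemokines, matrix genes and proteases are given against the same share of all genes, 27.8% higher and 19.1% lower. Of 11 chemokines and receptors, 8 were higher in all 6 samples (72.7%) and 0 lower. Ccr2 was at 349 against 55.8 CPM and Ccl2, the ligand of Ccr2, at 207 against 59.9 CPM. Of 14 repair ligands and matrix genes, 8 were higher (57.1%), 2 lower (14.3%) and the others mixed between samples. Tgfbi was at 788 against 291 CPM and Cd44, the hyaluronan receptor, at 612 against 208 CPM, while Vegfa was lower at 47.0 against 97.4 CPM. Of 12 proteases and inhibitors, 8 were higher (66.7%) and 1 lower (8.33%), with Ctsl at 281 against 73.3 CPM and Plaur, the urokinase receptor, at 108 against 30.1 CPM.

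Iron and energy genes were less uniform. Of 13 genes of iron, heme and antioxidant defence, 7 were higher in all 6 samples (53.8%, against 27.8% of all genes) and 1 lower (7.69% against 19.1%). Hmox1, which breaks down heme, was at 252 against 62.2 CPM, Fth1, a ferritin chain, at 487 against 258 CPM, and Cp, ceruloplasmin, lower at 94.4 against 447 CPM. Of 16 genes of glycolysis and hypoxia, 7 were higher (43.75%) and 2 lower (12.5%), with Pkm, pyruvate kinase, at 332 against 134 CPM. Of 22 macrophage transcription factors, 10 were higher (45.5%) and 0 lower. Mitf, a regulator of lysosome genes, was at 1347 against 809 CPM and its relative Tfec at 125 against 53.1 CPM, whereas Spi1, which encodes PU.1, was at 175 against 183 CPM.

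Complement genes went in both directions. Of 10 such genes, 3 were higher (30.0%, against 27.8% of all genes) and 5 lower (50% against 19.1%), with a median log2 ratio of -0.29 against 0.09 over all genes. C1qc was at 113 against 205 CPM, while Itgam, the complement receptor CD11b, was higher at 188 against 70.9 CPM. Of 7 clock genes, 0 were higher and 5 lower (71.4%), with Rora at 322 against 802 CPM. Outside the lists, Plekhg5 was at 27.2 against 312 CPM and Reln at 9.66 against 120 CPM. Cd86, a costimulatory receptor, was at 110 against 306 CPM. Markers of other cells differed by type. The same limits on genes of cardiomyocytes, endothelial cells and fibroblasts were set for members and for resident-like nuclei. All 10 cardiomyocyte genes and all 8 endothelial genes compared were lower in the members of all 6 samples, and the cardiomyocyte list summed to 2398 to 5892 CPM in members and 4378 to 16406 CPM in resident-like nuclei. Of 8 fibroblast genes, 2 were lower in all 6 samples (25%, against 19.1% of all genes) and 0 higher. The summed neutrophil and monocyte markers were higher in members, as given above. Their part in these differences was not tested.

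Cycling nuclei were present in both kinds. With 3 of 18 cell cycle genes required after thinning, 6.62%, 4.33% and 1.88% of the I/R members and 7.17%, 3.26% and 2.98% of the SBP members counted as cycling. Resident-like nuclei gave 13.1%, 1.10% and 0.840% in I/R and 3.27%, 4.12% and 1.44% in SBP. I/R 1 held the highest resident-like value. The members were above the resident-like nuclei in 4 samples and below them in I/R 1 and SBP 2.

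To ask how SBP changed the injury macrophages, UMIs were summed over the members of each sample and compared between SBP and I/R with limma on log2(scaled CPM + 1). No gene was called. Of 9793 genes, 0 (0%) passed a Benjamini-Hochberg adjusted p of 0.05 in the limma test with an absolute log2 fold change over 0.25. An unadjusted p under 0.05 was reached by 418 genes (4.27%). The smallest adjusted p was 1.0, and without I/R 2 it was 0.145, again with 0 genes called. All SBP samples lay above all I/R samples for 408 genes (4.17%) and below them for 507 genes (5.18%), 915 genes in all (9.34%). The genes below are those with the smallest unadjusted p in each direction and are uncalled.

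Dok2, an adaptor that dampens receptor signalling, was at 38.9, 49.0 and 47.6 scaled CPM in I/R and 114, 88.7 and 151 in SBP (log2 fold change 1.34 ± 0.23 SE). Alcam, an adhesion receptor, was at 873, 516 and 769 in I/R and 1173, 1579 and 1684 in SBP (1.06 ± 0.23). Fam129b (0.91 ± 0.18), the sulphotransferase Chst11 (0.92 ± 0.20) and Basp1 (0.80 ± 0.19) also lay higher in all 3 SBP samples. Fam129b is among the genes the study chose on these samples, so its order is no independent evidence. Pex13, a peroxisome import factor, was at 81.2, 77.3 and 120 in I/R and 38.0, 46.4 and 38.8 in SBP (-1.13 ± 0.23). Ddhd1, a phospholipase, was at 441, 565 and 524 in I/R and 264, 330 and 271 in SBP (-0.82 ± 0.17). Glul, glutamine synthetase, was at 101, 118 and 106 in I/R and 62.0, 65.2 and 42.5 in SBP (-0.95 ± 0.21). Dok2, Fam129b, Pex13, Ddhd1, Fbxo32 and Glul overlap other genes on the opposite strand.

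Fbxo32 and Myocd, both known from muscle, were lower in SBP. Fbxo32 was at 56.2, 61.5 and 66.4 scaled CPM in I/R and 24.0, 29.4 and 12.9 in SBP (-1.50 ± 0.31), and Myocd at 161, 82.3 and 90.3 against 48.0, 50.5 and 36.9 (-1.23 ± 0.27). In nuclei with none of the 6 genes of other cell types, the log2 fold change was 0.45 for Myocd and -0.76 for Fbxo32. That of Myocd was -0.34 when 4 genes of the rule were required and -0.05 in members inside the run of neighbouring barcodes that held 87.8% to 96.6% of the members of a sample, a setting chosen after seeing the data. The cardiomyocyte markers moved with them: 9 of 10 had a negative log2 fold change, with a median of -0.34 against -0.02 over all genes. The sum of the list was 5892, 3004 and 4691 CPM in the I/R members and 3058, 3313 and 2398 CPM in the SBP members. Its part in these differences was not tested.

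**Figure D5:**
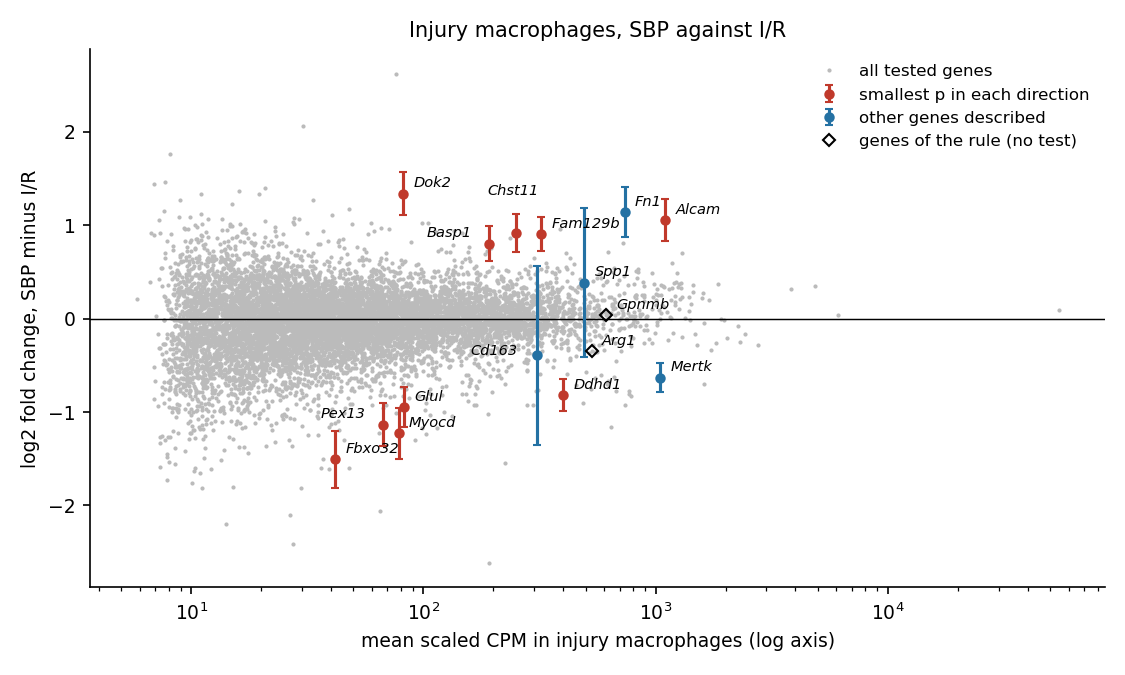
Log2 fold change in injury macrophages, SBP minus I/R (y axis), against mean scaled CPM (x axis, log scale) for the genes fitted; error bars are 1 SE of the limma fit. Red points are the 10 uncalled genes with the smallest unadjusted p, from Fbxo32 at -1.50 to Dok2 at 1.34, and blue points are other genes described, of which Spp1 and Cd163 have error bars that cross 0; open diamonds are Gpnmb and Arg1, which chose the members and have no error bar.

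The 9 genes that chose the members are described without a test. For 8 of them the SBP samples overlapped the I/R samples, as the levels of Gpnmb and Arg1 above show. The other, 1 of 9 beside 9.34% of all genes tested, was Lilr4b, which was at 727, 856 and 826 scaled CPM in I/R and 1231, 1221 and 954 in SBP, and so lay higher in all 3 SBP samples. Spp1, which was not in the rule, differed by 0.39 ± 0.80 on the log2 scale, an error that leaves room for large differences in both directions.

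No gene outside the rule was called in any list, so the counts of signs below are descriptions, to be read against 53.2% negative values and a median of -0.02 over all genes tested. Of 11 injury macrophage markers fitted, 9 had a positive and 2 a negative log2 fold change (median 0.39). Fn1 was at 337, 606 and 432 scaled CPM in I/R and 1113, 700 and 1226 in SBP (1.14 ± 0.27), without overlap, and it is also among the genes the study chose on these samples. Lgals3 differed by 0.44 ± 0.39 and Plin2 by 0.20 ± 0.24, with overlap. Of 15 general macrophage genes, 11 had a negative log2 fold change (median -0.17). Mertk was at 1272, 1163 and 1390 in I/R and 821, 866 and 779 in SBP (-0.63 ± 0.15), without overlap, whereas Ptprc (0.03 ± 0.21), Dock2 (0.38 ± 0.19) and Adgre1 (-0.20 ± 0.23) overlapped.

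Of 12 complement genes, 10 were negative (median -0.30), with 0 called. C1qb, a chain of the first complement component, was at 374, 319 and 308 scaled CPM in I/R and 294, 250 and 227 in SBP (-0.38 ± 0.17). Of 12 interferon-stimulated genes, 11 were negative (median -0.36) and 0 called, with Oas2 at -0.52 ± 0.22 and Oasl2 at -0.60 ± 0.36. Both groups overlapped for these 2 genes. Of 14 glucocorticoid-responsive genes, 10 were negative (median -0.30) and 0 called, with Fkbp5 at -0.77 ± 0.68. Zbtb16, a zinc finger factor with the smallest p of that list, was at 180, 468 and 353 scaled CPM in I/R and 188, 86.3 and 72.0 in SBP (-1.55 ± 0.44), with overlap at I/R 1 and SBP 1. Lysosome and lipid genes were centred near 0 (15 positive and 10 negative, median 0.05), as were macrophage transcription factors (15 and 14, median 0.004) and chemokines and receptors (11 and 9, median 0.06). Cd86 was at 89.5, 99.7 and 90.3 in I/R and 210, 128 and 135 in SBP (0.72 ± 0.21). Of the 24 genes that the study named for the drug in macrophages, 13 were positive and 11 negative (median 0.26), with 0 called. An unadjusted p under 0.05 was reached by 12 of the 24 (4.27% of all genes), and 8 had no overlap, 6 higher and 2 lower in SBP (9.34% of all genes). Cdk14, a kinase, was among them at 0.70 ± 0.17. Ryr2, 1 of the 2 lower genes, was at -1.16 ± 0.32 and is also among the cardiomyocyte markers above. The list of drug genes was chosen on these samples, so its counts are no independent evidence.

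The SBP difference was then compared between injury and resident-like macrophages of the same hearts. Of 8720 genes, 0 (0%) had a limma adjusted p at or under 0.05 for the difference of the differences, 456 had an unadjusted p under 0.05, and the smallest adjusted p was 0.711. Resident-like macrophages alone gave 0 of 9122 genes (0%), 526 at an unadjusted p under 0.05. The smallest p belonged to Atg14, an autophagy factor (-1.48 ± 0.23 on the log2 scale, injury minus resident-like), and Rasgrp1, an activator of Ras, was the first in the other direction (1.73 ± 0.31). Sms, spermine synthase, followed at 1.21 ± 0.23. None of these was called.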

How the data were processed

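sNuc-seq (10x Genomics 3' v3) of frozen mouse heart tissue was analysed in 9 samples. Per the study, the tissue of every sample came from below the ligation, so shares are not those of the whole heart. Per the study's methods the authors ran fastp and CellRanger against mm10, down-sampled the samples to a similar depth, applied a filter of 200 genes and of 10% mitochondrial reads per nucleus, and removed mitochondrial genes. The submitters' processing notes name Cell Ranger 4.0, STAR, Seurat 3.2.0 and GRCm38, while the study's methods give other versions of Cell Ranger and Seurat, and which of them made the tables is not given in the sources used here. The deposited tables hold, for each gene and nucleus, the natural log of 1 + 10000 × UMIs / total UMIs of the nucleus, which the authors computed. UMIs were recovered from them, and at least 99.9996% of values lay within 0.1 of a whole UMI. They hold 49171 nuclei, fewer than the study reports after its filters, and no nucleus had under 405 genes. The reason is not given in the sources used here. No doublet step is named in the sources used here, and none was run.

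Members, gene lists and neighbouring kinds of nuclei were chosen with earlier results of these data known. Groups came from the labels. UMIs were summed per sample over the members (samples with at least 20), scaled with TMM factors, and log2(CPM + 1) was fitted with limma 3.58.1 (R 4.3.3; trend and robust variances; genes at 10 UMIs of a median library in 3 samples and 15 UMIs in all). Fold changes are on this scale and understate the change of low genes. The planned fits against sham were not run because sham samples had under 20 members. Shares were compared with an exact permutation test. The script was tested on simulated sums in which all genes had the same spread between samples (SD 0.140, natural log). It recovered 68 of 98 genes changed 2-fold and 87 of 94 changed 4-fold, with 3 false calls. In the data the SE differed between genes, so these values do not give the power of the fits. Named were the genes of the rule, the 5 genes with the smallest p in each direction, up to 4 genes with the highest mean CPM of a list, the 20 with the largest ratio to resident-like nuclei and the 8 most like Gpnmb. Further genes (Nfkbiz, Ier3, Nfil3, C1qc, Lrp1, Trem2, Pros1, Ctsd, Lpl, Vegfa, Plaur, Cp, Tfec, Spi1, Plekhg5, Reln) were added after their values were seen. Genes were placed with GENCODE vM21 (GRCm38). Alternatives are given in the closing section. Values of some genes that the naming rule or the lists cover are not reported here.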

Additional observations from a re-analysis of the deposited data

How the results depend on the processing

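The SBP minus I/R difference in log2 share kept its sign in all 15 alternatives, with exact permutation p of 0.2 to 0.7 (-0.69 to -0.82 under other rules and thinning, -0.31 to -1.24 with 1 sample left out). As a share of injury plus resident-like macrophages in place of all nuclei, it was -0.21 (exact permutation p = 0.7). The rule was tightened to 4 genes, loosened to 2, run without Ctss, with none of the genes of other cells, with Ptprc required and after thinning. The limit on neutrophil genes was not varied. A run of neighbouring barcodes held 87.8% to 96.6% of the members of an I/R or SBP sample, and members inside it gave -0.68 (exact permutation p = 0.4), a setting chosen after seeing the data. The count of genes called by limma was 0 in all 21 alternatives for SBP against I/R (235 to 793 genes at an unadjusted p under 0.05) and in all 13 for the difference from resident-like macrophages (320 to 792), which covered the pseudocount, the low filter, the scaling, mean log values and each sample left out. A fit to the samples of the 2 groups alone was the same fit, because no sham sample entered. Samples with the same replicate number did not deviate together (correlations of -0.05, -0.25 and 0.21), and not every sample correlated best with its own number. With the replicate block the count was 0 (424 at an unadjusted p under 0.05) and 0 for the difference from resident-like macrophages (433), and the share difference was -0.71 (exact permutation p = 0.5). Of 210 values of the 10 uncalled genes, 209 kept their direction. Their sizes changed more: on mean log values per nucleus, a scale on which low genes have small differences by construction, the differences were 0.32 for Dok2, 0.39 for Chst11, 0.35 for Basp1, 0.57 for Fam129b, -0.24 for Pex13, -0.15 for Fbxo32, -0.24 for Glul and -0.07 for Myocd, while Alcam (0.94) and Ddhd1 (-0.63) stayed within 1.5 times. Myocd was at -0.74 with Ptprc required. Myocd was reversed, at 0.45, with none of the 6 genes of other cells allowed, and the cause was not tested. Sums over 225 to 1182 nuclei per sample limit what low genes can show.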

Other observations

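Cxcl2 and Clec4e were uneven between the injury macrophages of samples of the same group. Cxcl2, a neutrophil attractant, was at 7.63, 397 and 27.8 scaled CPM in the I/R members and 274, 34.1 and 72 in the SBP members. Clec4e, which encodes the receptor Mincle, was at 9.71, 131 and 21.8 scaled CPM in I/R and 44, 38.8 and 36.9 in SBP. I/R 2 was highest for both. Other inflammatory genes varied to different degrees, from Saa3 at 3.69 to 1101 scaled CPM over the 6 samples, Il1b at 8.93 to 106 and Nfkbia at 60.9 to 351 to Tlr4, a sensor of bacterial lipids, at 159 to 258. S100a8, a neutrophil gene, was at 112 CPM in the members of I/R 2 and 12.9 to 22.6 CPM in those of the other 5 samples, and neutrophil-like nuclei were 5.17% of that sample. The part of neutrophil RNA in these values was not tested. These genes were chosen after their values were seen.

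The summed members of I/R 1 and SBP 2 had the highest Spearman correlation of any pair of samples (0.954 over 9812 genes), and those of SBP 1 and SBP 3 the lowest (0.900). The values are a description over genes, which are not independent, and the samples with more members have more UMIs, 2873833 and 1749132 in the first pair and 487542 and 539259 in the second.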
